A study of Danio rerio with 2 samples.

Results

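The forkhead (Fox) transcription factor family was described across GFP-positive cells sorted from zebrafish embryos that carry a disrupted copy of etv2, the ETS factor that starts vascular development, on one or both chromosomes. Members were every gene of the deposited gene list whose symbol consists of fox, a subfamily letter from a to r and a number, which gave 53 of 25743 genes. Of these, 35 had at least 20 UMIs (unique molecular identifiers, each a counted RNA molecule) over the kept cells of both libraries and are described with values. Another 10 had 1 to 19 UMIs (foxe3, foxf1, foxg1d, foxi2, foxi3a, foxi3b, foxj2, foxp2, foxq1a and foxq1b), and 8 had 0 (foxb2, foxe1, foxg1c, foxn1, foxo1b, foxp3a, foxp3b and foxq2). The study compared heterozygous with homozygous etv2 ci32Gt; UAS:GFP embryos, in which a gal4 reporter inserted into the etv2 coding sequence drives GFP, at the 20-somite stage. Both genotypes carried the insertion and the UAS:GFP transgene, GFP-positive cells were sorted from dissociated pools of embryos, and 1 droplet single-cell library was made per genotype. No wild-type library was analysed here, and there is no replicate library, so no genotype difference below has a replicate check or a test.

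Forkhead proteins share a winged-helix DNA-binding domain and are sorted into lettered subfamilies by its sequence. FoxC factors act with Etv2 at composite FOX:ETS motifs of endothelial enhancers, and FoxO factors are kept out of the nucleus by Akt, which ties them to insulin and growth factor signaling. FoxD, FoxF and FoxL factors are best known from mesenchyme and kidney stroma, FoxG and FoxB from the neural tube, FoxA from endoderm and floor plate, FoxI from ionocytes, FoxJ1 from cells with motile cilia, and FoxP factors from the lung, heart and nervous system.

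The kept barcodes had 2500 or more UMIs, a gene number above 200 and up to 3500, and a mitochondrial share no higher than 5%. They numbered 1608 in the heterozygous library (median 10036.5 UMIs per cell) and 473 in the homozygous library (median 13079 UMIs), with no barcode kept in both. The disrupted gene itself stood at 290 CPM (counts per 1000000) in heterozygous and 15.13 CPM in homozygous cells, where CPM is the gene's UMIs for every 1000000 UMIs of the cells named. Where its counted reads lie relative to the insertion is not given in the sources used here. Cells were clustered without the forkhead genes, and 14 of 16 clusters could be named from fixed marker lists, giving 10 classes. Although the labels call all sorted cells endothelial, endothelial-like cells made up 23.3% of heterozygous cells (95% exact interval 21.2 to 25.4%) and 0.423% of homozygous cells (0.0512 to 1.52%). Endothelial progenitor-like cells (EPC-like, 225 against 3) and macrophage-like cells (228 against 3) were likewise few in the homozygous library, whereas lateral plate and head mesenchyme-like cells (LPM-like) made up 4.60% and 17.5% of cells. Forkheads summed to 281 CPM in heterozygous and 405 CPM in homozygous cells. Barcodes with 1 to 100 UMIs, taken here to hold mostly RNA free in the suspension, had 198 and 394 CPM. Red blood cell-like (RBC-like) cells, with a median of 14413 and 18457 UMIs, served as the reference for that background. The 2 measures can differ: foxd1 was at 3.12 and 58.2 CPM in the low-count barcodes, while RBC-like cells held 1 and 0 foxd1 UMIs. All intervals below are 95% intervals of counting error only.

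LPM-like cells carried the most forkhead RNA and the most forkhead genes. In the heterozygous library the 35 genes summed to 1224 CPM in LPM-like cells, 637 CPM in neural-like cells, 447 CPM in EPC-like cells, 397 CPM in epidermal-like cells and 270 CPM in endothelial-like cells, while RBC-like and macrophage-like cells stood at 112 and 116 CPM. A gene was counted for a class when its CPM was at least 2-fold that of all other cells of the library, with at least 20 UMIs in the library and 10 in the class. By this rule 12 of 27 forkheads with enough counts were higher in LPM-like cells, against 6.26% of all genes. The other shares were 3 of 27 in endothelial-like cells (all genes 10.5%), 6 of 27 in EPC-like cells (7.06%), 5 of 27 in neural-like cells (6.92%) and 4 of 27 in epidermal-like cells (5.82%). The share of forkheads in LPM-like cells was thus well above that of all genes, and the share in endothelial-like cells was close to it.

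**Figure D1:**
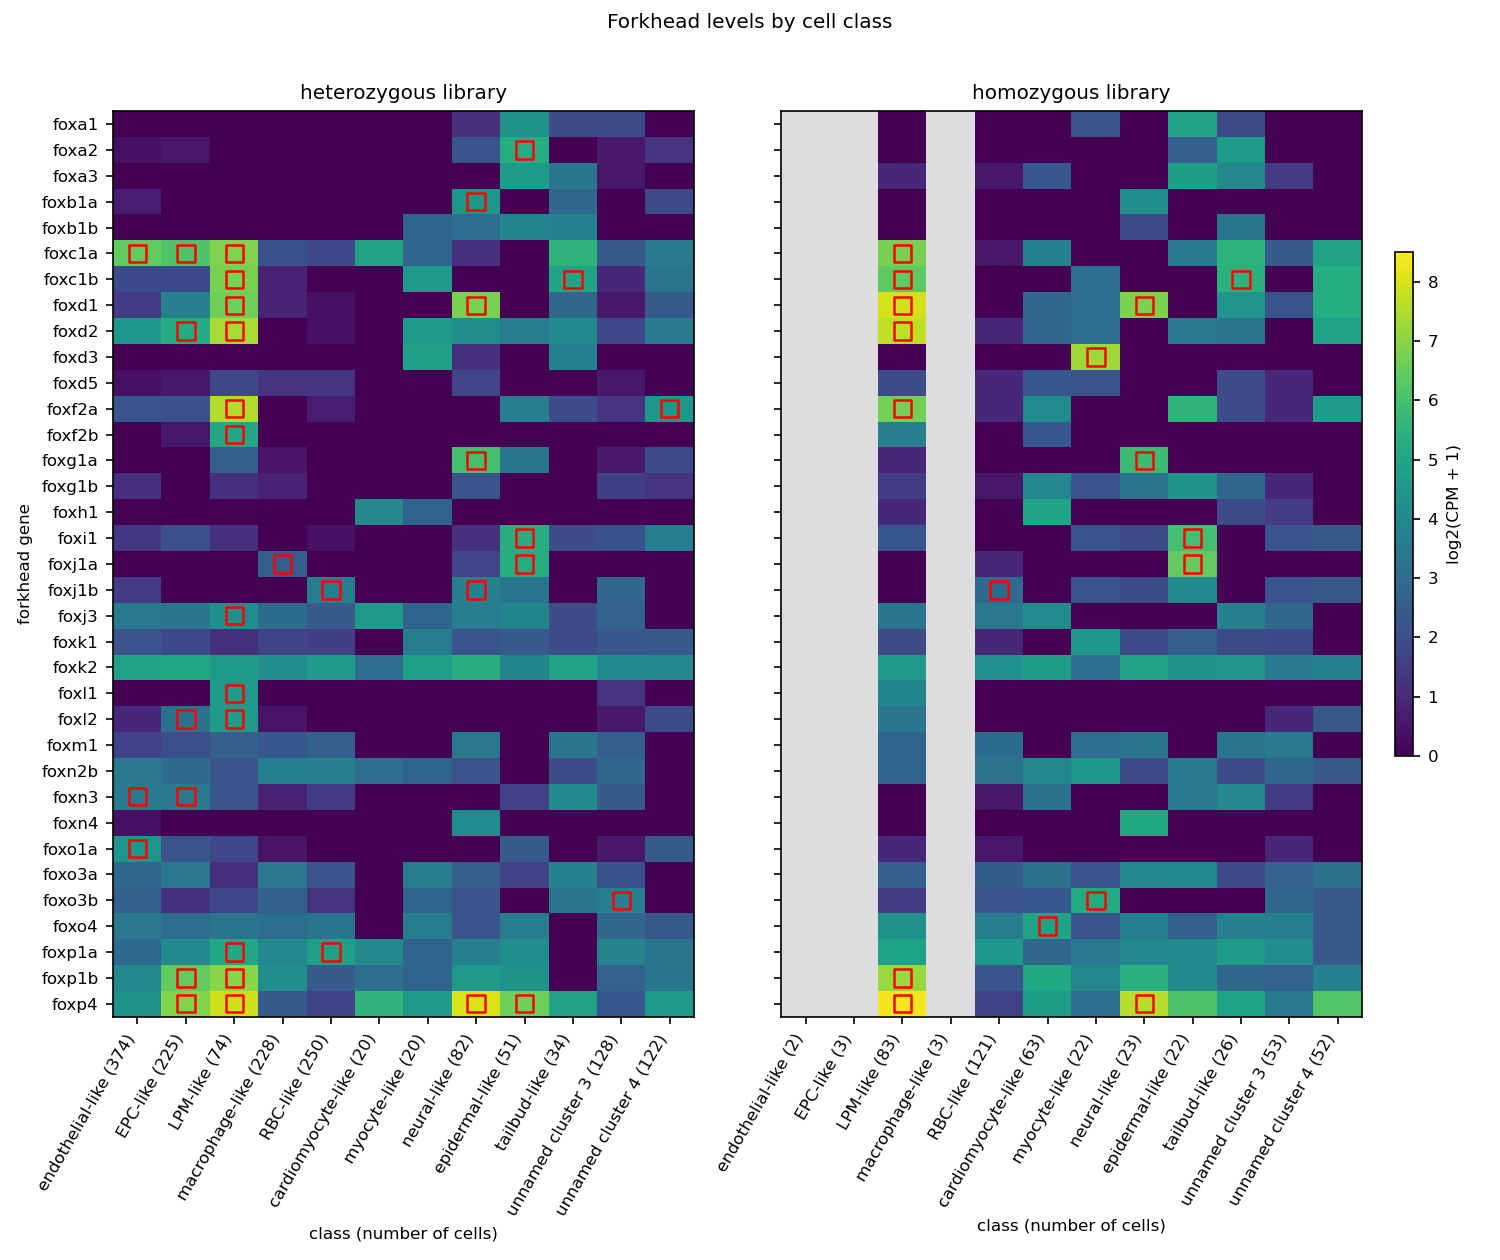
Level of the 35 measured forkhead genes (rows) in each cell class (columns, with the number of cells) of the heterozygous (left) and homozygous (right) library, as log2(CPM + 1). Red squares mark genes at least 2-fold higher in a class than in all other cells of that library, 12 of them in heterozygous and 7 in homozygous LPM-like cells, and gray columns are classes with under 20 cells.

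The FoxF, FoxC and FoxD genes past the mark in LPM-like cells come first. foxf2a (ENSDARG00000017195), a gene of cranial mesenchyme and of the mural cells of brain vessels, stood at 178 CPM in heterozygous LPM-like cells and 2.79 CPM in all other cells, a ratio of 63.6 (45.2 to 91.1), and 75.8% of its UMIs in the library lay in these 74 cells. Its paralog foxf2b had 27 of its 28 UMIs there, at 34.0 CPM, a ratio of 548 (90.4 to 22445) against the 1 UMI found elsewhere. foxf2a was less restricted than foxf2b, with 45 UMIs outside the class, among them 15 in the shallow unnamed cluster (21.4 CPM) and 5 in epidermal-like cells (11.0 CPM). RBC-like cells held 2 foxf2a UMIs and 0 foxf2b UMIs.

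foxc1b (ENSDARG00000055398), a regulator of somite and head mesenchyme formation, was at 111 CPM in heterozygous LPM-like cells and 2.42 CPM elsewhere, a ratio of 45.8 (31.1 to 68.6). The next highest class was tailbud-like, at 30.5 CPM, where foxc1b was the only forkhead past the 2-fold mark (1 of 27, all genes 4.30%). foxd2 (ENSDARG00000058133), known from paraxial mesoderm and kidney in the mouse, was at 166 CPM and 13.9-fold (11.0 to 17.4) above other cells. foxd1 (ENSDARG00000029179), known in the mouse from kidney stroma and the forebrain, was at 98.2 CPM and 11.9-fold (8.89 to 15.9) above other cells. Unlike foxd2, foxd1 was as high in another class, since neural-like cells held 110 CPM and the intervals of these classes overlapped.

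FoxL genes were rarer. foxl2, known from the ovary and from periocular mesenchyme, was at 25.2 CPM in LPM-like cells, 8.24 CPM in EPC-like cells and 0 in RBC-like cells, and was 16.2-fold (8.56 to 30.5) above other cells in the first of these. foxl1, a gene of gut and pharyngeal mesenchyme, had 19 UMIs in 4 LPM-like cells and 3 UMIs elsewhere, a ratio of 129 (37.9 to 678), and 1 cell held 11 of the 19. The foxl1 value therefore rested on a handful of cells.

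FoxP genes were high in LPM-like cells but shared with other classes. foxp4 (ENSDARG00000076120), the most abundant forkhead of the series, was at 237 CPM in LPM-like, 259 CPM in neural-like, 119 CPM in EPC-like, 96.9 CPM in epidermal-like and 2.37 CPM in RBC-like heterozygous cells. The intervals of the neural-like and LPM-like levels overlapped. foxp1b followed a similar order within mesoderm, with 125 CPM in LPM-like, 87.9 CPM in EPC-like, 14.2 CPM in endothelial-like and 4.45 CPM in RBC-like cells. Its paralog foxp1a was more even, at 32.7 CPM in LPM-like and 27.0 CPM in RBC-like cells, both just past the 2-fold mark. foxj3, a broadly found factor, was at 17.6 CPM in LPM-like cells, 2.39-fold (1.27 to 4.17) above the rest.

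The 7 forkheads past the mark in LPM-like cells of both libraries were also counted per cell. Because they were chosen for their LPM-like level, higher counts in LPM-like cells than in other classes follow from the choice. The counts below are a description of how many were detected in a cell. They are not evidence that these genes occur together or set the classes apart. Of the 74 heterozygous LPM-like cells, 59 (79.7%, 68.8 to 88.2%) had a UMI of at least 3 of foxc1a, foxc1b, foxd1, foxd2, foxf2a, foxp1b and foxp4, compared with 59 of 225 EPC-like cells (26.2%), 16 of 374 endothelial-like cells (4.28%) and 0 of 250 RBC-like cells, which allows a share of up to 1.46%. In the homozygous library the share in LPM-like cells was 63 of 83 (75.9%, 65.3 to 84.6%) and that in RBC-like cells 0 of 121. After each cell was thinned to 5157 UMIs, which left out 331 heterozygous and 85 homozygous cells, 41.2% of heterozygous LPM-like cells had a foxc1a UMI (66.2% before thinning), against 0.881% of RBC-like cells (3.2% before). The corresponding thinned shares were 64.7% and 0.881% for foxp4 and 39.7% and 0% for foxd2.

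Paralogs differed in how often they were found in the same cell, but the order of the pairs was not the same in both libraries. foxf2b was seen in 12 heterozygous LPM-like cells, and all 12 also had foxf2a, which was seen in 26. foxc1a was seen in 49 and foxc1b in 42 of the 74 cells, with both in 30. The FoxD pair was seen in 23 (foxd1) and 39 (foxd2) cells, with both in 12. In homozygous LPM-like cells, 4 of the 6 cells with foxf2b had foxf2a, and 27 of the 37 with foxc1b had foxc1a. Among pairs chosen after their values were seen, 3 of the 14 heterozygous LPM-like cells with foxl2 had foxd2 and 1 had foxf2a, whereas in the homozygous library 5 of 7 had foxd2 and 3 had foxf2a. foxd1 and foxf2a met in 4 of the 23 cells with foxd1. In the homozygous library, 32 of the 38 LPM-like cells with foxd1 also had foxd2, and 16 had foxf2a. Absence of a UMI in a cell at this depth is not absence of the RNA.

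The vascular classes shared foxc1a and foxn3 and differed in foxo1a. foxc1a (ENSDARG00000091481), a paralog of foxc1b with a role in angioblast and arterial development, was at 85.1 CPM (75.3 to 95.7) in endothelial-like, 70.5 CPM (59.8 to 82.5) in EPC-like and 115 CPM (92.3 to 141) in heterozygous LPM-like cells, and at 2.67 CPM in RBC-like cells. The endothelial-like level overlapped in its interval with each of the other 2 levels, and 42.0% of endothelial-like cells had a foxc1a UMI. foxc1b was not shared in this way, with a UMI in 1.87% of endothelial-like and 2.22% of EPC-like cells. foxn3, a factor linked to cell cycle checkpoints, was at 10.2 CPM in endothelial-like and 9.61 CPM in EPC-like cells, 2.97-fold (1.84 to 4.74) and 2.40-fold (1.38 to 4.01) above the rest, and 15.2 CPM in the 34 tailbud-like cells.

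foxo1a (ENSDARG00000099555), whose mouse counterpart is required for vascular development, had the largest ratio of the 3 forkheads past the mark in endothelial-like cells. It was at 21.0 CPM in these cells, 3.66 CPM in EPC-like cells, 2.52 CPM in LPM-like cells and 0 in RBC-like cells, and 80.0% of its UMIs in the library were endothelial-like. The ratio to all other cells was 16.9 (9.84 to 30.7). Its level also differed between the endothelial-like clusters, at 36.7 CPM (27.0 to 48.8) in the cluster led by calcrla, dll4 and flt1 and 10.8 CPM (6.66 to 16.4) in the cluster led by agtr2, dab2 and mrc1a, 2 intervals that did not overlap. foxc1a differed less between them, at 103 and 73.3 CPM. EPC-like cells stood apart from endothelial-like cells by foxp1b, foxp4, foxl2 and, less clearly, foxd2. These were 5.12-fold, 3.03-fold, 4.49-fold and 2.20-fold above the rest of the library in the former and not past 2-fold in the latter. By cluster, foxd2 was at 39.4 CPM (31.1 to 49.4) and 15.5 CPM (4.23 to 39.7) in EPC-like cells. It was at 26.1 CPM (19.5 to 34.4) in the endothelial-like cluster led by agtr2. With the mean of single-cell CPM in place of pooled counts, the EPC-like ratios of foxc1a and foxd2 were 1.93 and 1.87 instead.

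Of the 5 forkheads past the mark in neural-like cells, foxg1a and foxb1a were rare elsewhere, while foxd1 and foxp4 were also high in LPM-like cells and foxj1b in RBC-like cells. foxg1a, which marks the telencephalon, was at 62.1 CPM in heterozygous neural-like cells and 0.746 CPM elsewhere, a ratio of 83.1 (43.8 to 171), and was found in 16 of 82 cells. foxb1a, a gene of the caudal diencephalon and hindbrain, was at 21.5 CPM in 10 cells and 57.6-fold (21.9 to 177) above the rest. foxd1 had 92 UMIs in only 11 neural-like cells, 23 of them in 1 cell. foxn4, known from retinal progenitors and spinal interneurons, had 14 of its 15 heterozygous UMIs in this class and fell short of the minimum of 20. foxj1b, a paralog of the cilia regulator foxj1a, was at 11.9 CPM, of which 4 of 10 UMIs were in 1 cell.

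Heterozygous epidermal-like cells carried FoxA genes, foxi1 and foxj1a. Beside them, the hatching gland marker list summed to 5916 CPM in heterozygous epidermal-like cells (290 CPM over all cells) and the pronephros list to 141 CPM (15.31 CPM). The endoderm list summed to 61.7 CPM (11.8 CPM over all cells), and in homozygous epidermal-like cells to 157 CPM (22.5 CPM). The part of these lists in the forkhead levels was not tested. foxi1, a regulator of ionocytes, was at 39.7 CPM in heterozygous epidermal-like cells and 21.1-fold (11.1 to 38.8) above the rest, in 10 of 51 cells. foxj1a, the main regulator of motile cilia, was at 37.5 CPM in 4 cells and 41.1-fold (19.3 to 88.4) above the rest. In a comparison chosen after the values were seen, 0 of the 10 foxi1 cells had a foxj1a UMI. With 10 and 4 of 51 cells, this overlap cannot show that these genes lie in different cells. foxa2 was at 37.5 CPM in 6 cells, 88.1-fold (34.7 to 251) above the rest. foxa3 and foxa1, which had fewer than 20 UMIs in the library, were also highest there, at 24.2 and 19.8 CPM, with intervals that overlapped those of the next class. In the homozygous library foxa2 was highest in tailbud-like cells, at 23.8 CPM beside 5.07 CPM in epidermal-like cells, with overlapping intervals. The foxj1a result depended on which cells were clustered, since without the minimum of 2500 UMIs its epidermal-like ratio was 1.15.

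Blood and muscle classes of the heterozygous library had from 0 to 2 forkheads past the mark. These shares were near those of all genes, except in macrophage-like cells, where the share was lower. RBC-like cells had 2 of 27 forkheads past the 2-fold mark (all genes 8.85%), foxj1b at 11.0 CPM and foxp1a at 27.0 CPM. Macrophage-like cells had 1 (all genes 11.2%), foxj1a at 4.86 CPM in 8 of 228 cells. Cardiomyocyte-like and myocyte-like cells, with 20 heterozygous cells each, had 0 (all genes 1.96% and 1.34%). Of the unnamed clusters, the one led by adgrg11 and holding 6 of 7 genes of a p53 response list had 1 (all genes 2.26%), foxo3b at 11.4 CPM, a FoxO factor of stress responses. The shallow unnamed cluster had 1 (all genes 0.394%), foxf2a at 21.4 CPM in 6 cells. Its ratio of 2.03 dropped to 1.63 without the cell with the most foxf2a.

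For other forkheads the interval of the highest heterozygous class overlapped with that of the next. foxk2 was found in each of the 12 heterozygous classes, with a median of 23.0 CPM. It ranged from 7.52 CPM (0.190 to 41.9, from 1 UMI) in cardiomyocyte-like to 40.6 CPM in neural-like cells. A level of 0 in a small class is not absence, since 0 counts in the 20 cardiomyocyte-like cells allow up to 27.7 CPM. foxm1, a driver of G2 and M phase genes, was at 0 in 4 of the 12 classes and reached 9.55 CPM, highest in neural-like and tailbud-like cells. foxn2b, foxo3a and foxo4 were each at 0 in 2 classes and peaked at 12.3, 12.2 and 11.2 CPM. foxk1, a paralog of foxk2, was at 0 in 1 class and reached 11.2 CPM in myocyte-like cells, from 2 UMIs. foxd5 was at 0 in 5 classes and at most 2.52 CPM, and foxb1b, a paralog of foxb1a, was at 0 in 8 classes and at most 13.2 CPM, in epidermal-like cells. Over all cells their ratios of homozygous to heterozygous CPM were 0.898 (foxk1), 1.68 (foxd5) and 0.634 (foxb1b), each with an interval that included 1.

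The homozygous library had the same leading class. Of 21 forkheads with enough counts there, 7 were at least 2-fold higher in LPM-like cells (all genes 12.2%), namely foxc1a, foxc1b, foxd1, foxd2, foxf2a, foxp1b and foxp4, each of which was also past the mark in heterozygous LPM-like cells. Ratios to other cells ranged from 11.6 (foxp1b) to 56.6 (foxd2), and from 15.7 (foxp4) to 348 (foxd2) with the profile of the barcodes with 1 to 100 UMIs subtracted. The value of 348 is not a measured ratio. The subtraction left no foxd2 counts in the other cells, so 3 counts over all of them were taken as the floor. For foxf2a and foxc1b the LPM-like interval overlapped that of the next class, epidermal-like (105 and 45.7 CPM) and tailbud-like (82.2 and 41.6 CPM). The comparison cells differ between the libraries, because endothelial-like and EPC-like cells are few in the homozygous one. So foxc1a was 13.2-fold (9.19 to 19.3) above the rest in the homozygous and 3.82-fold (3.02 to 4.78) in the heterozygous library, at nearly the same LPM-like level. Neural-like cells had foxg1a, foxp4 and foxd1 (3 of 21, all genes 5.02%), and the foxd1 ratio of 2.34 was 1.39 without the 1 cell that held 19 of its 39 UMIs. Epidermal-like cells had foxi1 and foxj1a (2 of 21, all genes 3.78%), at 60.9 and 86.2 CPM. No foxj1a UMI lay in that class without the UMI minimum. Tailbud-like cells had foxc1b (1 of 21, all genes 6.69%) at a ratio of 2.52, which was 1.199 without the UMI minimum. RBC-like cells had foxj1b (1 of 21, all genes 10.1%) and cardiomyocyte-like cells foxo4 (1 of 21, all genes 9.87%). The unnamed clusters had 0 of 21 (all genes 2.40% and 0.513%).

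Homozygous myocyte-like cells had 2 forkheads past the mark (2 of 21, all genes 3.24%). foxd3 (ENSDARG00000021032), best known as a neural crest factor and also found in zebrafish somites, had all 44 of its homozygous UMIs in 7 of 22 myocyte-like cells, at 157 CPM, with 4 to 11 UMIs in each. With 0 UMIs elsewhere, the level was 314-fold that of other cells when 3 counts over all of them were taken as the floor. This value leaves out the counting error of the 44 UMIs. All 7 cells also had myod1 (2 to 20 UMIs) and myog (22 to 58 UMIs), factors of muscle differentiation and markers of the class, a comparison chosen after the values were seen. Of all 22 homozygous myocyte-like cells, 21 had myod1 and 16 had myog, and of the 3 heterozygous myocyte-like cells with foxd3, 1 had myod1 and 3 had myog. The neural crest marker list summed to 10.7 CPM in these homozygous and 28.1 CPM in heterozygous myocyte-like cells. foxo3b was at 35.7 CPM, 10.7-fold (4.47 to 24.0) above the rest.

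Over all kept cells, 7 of 35 forkheads were at least 2-fold higher (all genes 6.62%) and 1 at least 2-fold lower (all genes 11.2%) in the homozygous than in the heterozygous library. The median ratio of homozygous to heterozygous CPM was 1.27 over the forkheads and 0.990 over all genes. foxd1 had the largest number of counts behind its difference, 12.5 CPM (10.8 to 14.3) in heterozygous and 51.9 CPM (46.4 to 57.9) in homozygous cells, a ratio of 4.16 (3.49 to 4.97). foxc1b was at 7.51 and 17.8 CPM, a ratio of 2.38 (1.83 to 3.09). foxd3 was at 0.591 and 7.01 CPM, a ratio of 11.9 (5.88 to 26.4) that was 5.16 with the mean of single-cell CPM. For these 3 genes the intervals of the libraries did not overlap.

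Sparser genes made up the rest of those at least 2-fold apart. foxh1 (ENSDARG00000055630), a partner of Smad proteins in Nodal signaling, had 3 heterozygous and 19 homozygous UMIs, a ratio of 17.06 (5.02 to 90.0), and 15 of the 19 were in cardiomyocyte-like cells. foxg1b had 15 and 21 UMIs, a ratio of 3.77 (1.85 to 7.87), and its homozygous UMIs were spread over 18 cells. foxa3 had 15 and 16 UMIs, a ratio of 2.87 (1.33 to 6.24). The interval of foxn4 included 1 (2.16, 0.921 to 4.93), and without its top cell in each library the ratio was 0.491.

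In the other direction, foxo1a was at 5.03 CPM (4.01 to 6.21) in heterozygous and 0.797 CPM (0.259 to 1.86) in homozygous cells, a ratio of 0.158 (0.0502 to 0.385). foxn3 was lower without reaching 2-fold, at 0.539 (0.294 to 0.930). foxc1a, the other gene of vascular classes, stood at 34.0 and 24.4 CPM, a ratio of 0.717 (0.596 to 0.858). foxf2a and foxd2, at 1.98 (1.58 to 2.49) and 1.94 (1.63 to 2.30), lay just inside the mark.

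**Figure D2:**
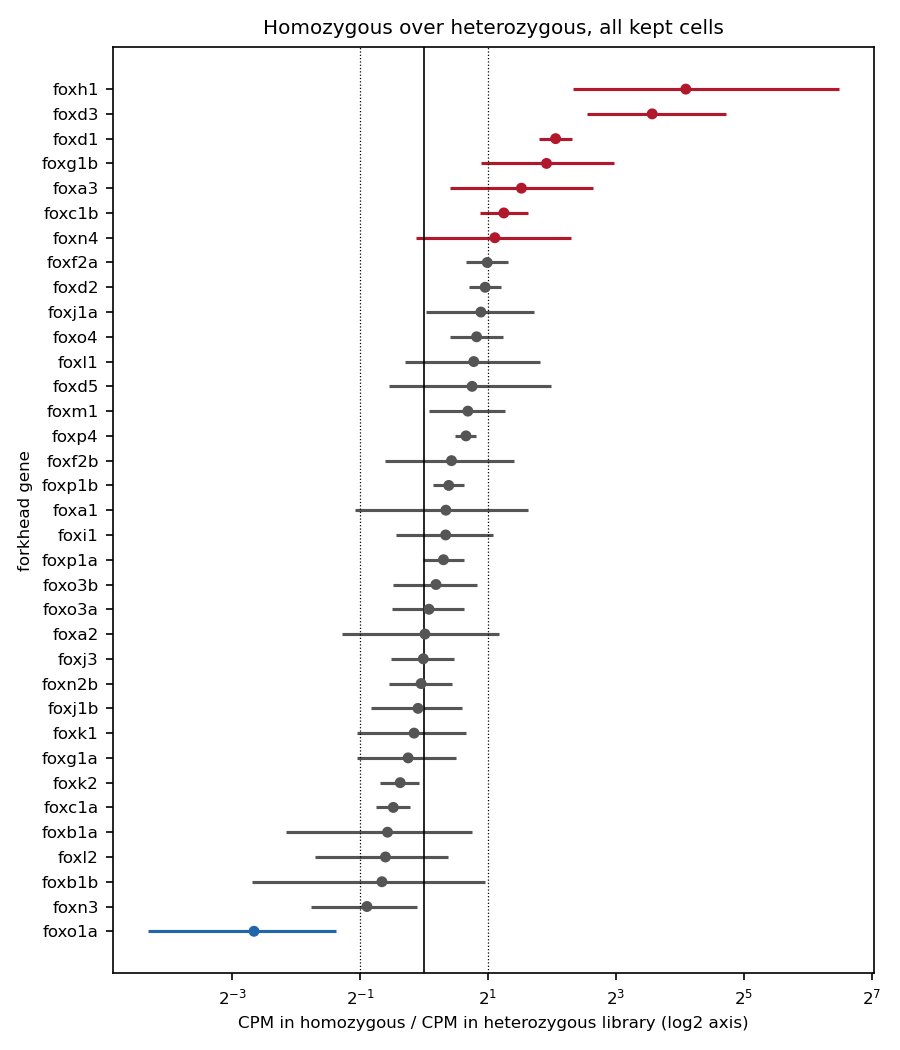
Ratio of CPM in homozygous over heterozygous cells for each of the 35 measured forkheads, over all kept cells, on a log2 axis with 95% counting intervals. Dotted lines mark 2-fold, red and blue points lie past it, and foxh1 (17.06), foxd3 (11.9) and foxd1 (4.16) lie farthest on the higher side and foxo1a (0.158) on the lower.

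Because the classes differed so much in number between the libraries, each heterozygous class level was weighted by the share of UMIs that the class had in the homozygous library. For foxo1a this alone gave 0.935 CPM, close to the measured homozygous 0.797 CPM. For foxc1b it gave 21.6 CPM beside the measured 17.8 CPM, and for foxc1a 27.2 CPM beside 24.4 CPM. The levels of these 3 genes at the homozygous class shares were therefore near those measured. foxd1 differed from them, with 23.2 CPM at the homozygous class shares and 51.9 CPM measured, 2.24 times as much. Among others that lay above were foxd3 (1.97 and 7.01 CPM), foxg1b (0.818 and 3.35 CPM, 4.09 times) and foxj1a (1.33 and 3.50 CPM). So did foxh1 (1.43 and 3.03 CPM), foxn4 (0.918 and 1.91 CPM) and the better counted foxo4 (6.78 and 13.4 CPM). For foxh1 the class shares alone gave 8.04 times the heterozygous level, but this rested on 3 heterozygous UMIs. Of these, 2 were in cardiomyocyte-like cells, at 15.0 CPM (1.82 to 54.3). Among those that lay below were foxf2a (31.4 and 21.8 CPM), foxf2b (5.67 and 2.23 CPM) and foxl2 (4.45 and 1.75 CPM). So did foxl1 (4.25 and 2.23 CPM), foxb1a (1.62 and 0.956 CPM) and foxb1b (1.71 and 0.637 CPM). Levels at the homozygous class shares have no interval, and foxd3, foxg1b, foxn4 and foxb1b had only 10 to 17 heterozygous UMIs. With 1 library per genotype, a difference of class shares between genotypes and one between dissociations or sorts cannot be told apart.

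**Figure D3:**
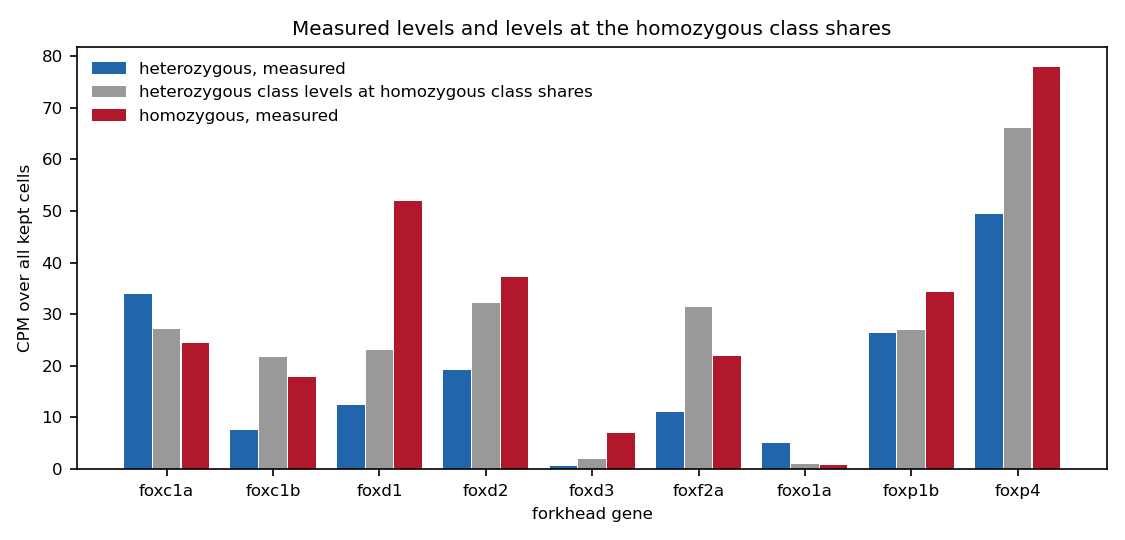
CPM over all kept cells for 9 forkheads (bars start at 0): measured in heterozygous cells (blue), computed from heterozygous class levels at the homozygous class shares (gray), and measured in homozygous cells (red). For foxo1a and foxc1b the gray and red bars are close, and for foxd1 the red bar (51.9 CPM) is 2.24 times the gray one (23.2 CPM).

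Within LPM-like cells, 74 heterozygous and 83 homozygous, 14 forkheads had at least 20 UMIs in both libraries together. Of these, 2 were at least 2-fold higher in homozygous cells (all genes 5.49%) and 3 at least 2-fold lower (all genes 4.39%), with a median ratio of 0.915 beside 0.986 over all genes. foxd1 was at 98.2 CPM (77.7 to 123) in heterozygous and 248 CPM (219 to 281) in homozygous LPM-like cells, a ratio of 2.53 (1.96 to 3.30). Across the alternative analyses in which it was computed, this ratio stayed between 2.19 and 2.76. After thinning, 22.1% of heterozygous and 39.0% of homozygous LPM-like cells had a foxd1 UMI, and the intervals of these shares overlapped. Among RBC-like cells the share was 0% in each library (counting limits of 1.61% and 3.13%). The related foxd2 differed less, at 166 and 205 CPM, a ratio of 1.24 (0.990 to 1.55). foxo4 was the second gene past the mark on the higher side, with 7 and 20 UMIs and an interval that included 1 (0.881 to 6.07).

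Some FoxF and FoxL genes were lower in homozygous LPM-like cells. foxf2a was at 178 CPM (149 to 209) in heterozygous and 105 CPM (86.4 to 127) in homozygous cells, a ratio of 0.592 (0.457 to 0.765) that did not reach 2-fold. 1 heterozygous cell held 28 of its 141 UMIs, and the share of LPM-like cells with a foxf2a UMI was 35.1% for heterozygous and 38.6% for homozygous embryos. Its paralog foxf2b was at 34.0 and 11.5 CPM, a ratio of 0.337 (0.156 to 0.688), and foxl2 at 25.2 and 8.60 CPM, a ratio of 0.341 (0.137 to 0.784). The interval of foxl1 included 1 (0.559, 0.259 to 1.18). The interval of foxj3, the third gene past the mark on this side, included 1 (0.488, 0.186 to 1.21). foxp4 was higher without reaching 2-fold, at a ratio of 1.40 (1.17 to 1.69). The intervals of foxc1a (0.926, 0.695 to 1.23), foxc1b (0.742, 0.544 to 1.01) and foxp1b (1.16, 0.892 to 1.51) included 1. Beside these values, the LPM marker list summed to 3818 CPM in heterozygous and 4789 CPM in homozygous LPM-like cells and the EPC list, which includes etv2, to 3233 and 2392 CPM, while etv2 itself was at 305 and 20.1 CPM. The part of these differences in the forkhead ratios was not tested.

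**Figure D4:**
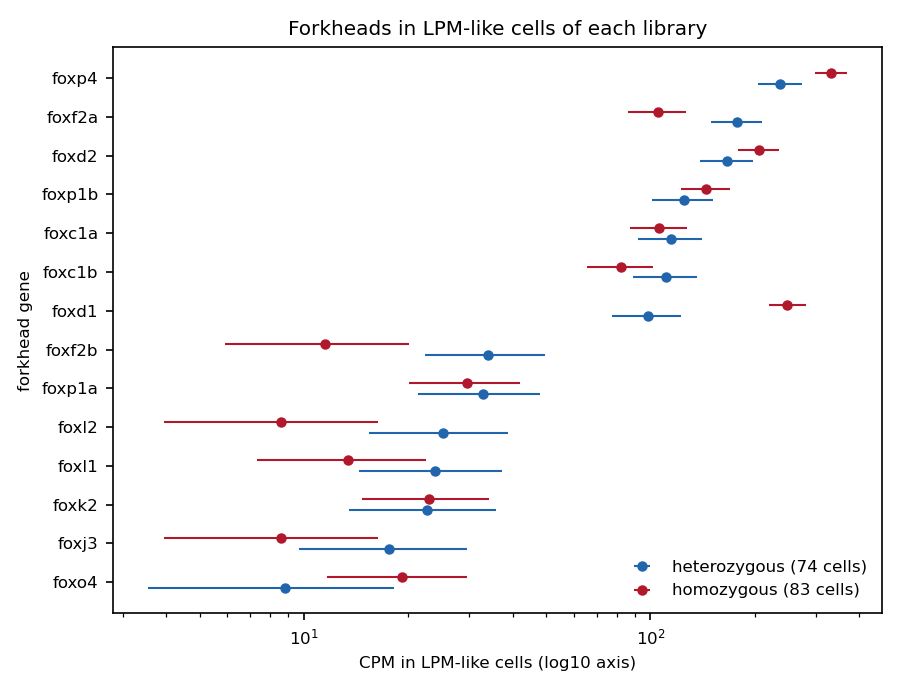
CPM of the 14 forkheads with at least 20 UMIs in LPM-like cells of the heterozygous (blue, 74 cells) and homozygous (red, 83 cells) library, on a log10 axis with 95% Poisson intervals. The intervals of foxd1 (98.2 and 248 CPM), foxf2a (178 and 105 CPM), foxf2b (34.0 and 11.5 CPM) and foxp4 (237 and 333 CPM) do not overlap between the libraries.

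In the other classes few forkheads had enough counts to compare genotypes. In myocyte-like cells the only one was foxd3 (1 of 1 higher, all genes 8.70%), with 5 UMIs in 3 heterozygous cells (28.1 CPM) and 44 in 7 homozygous cells (157 CPM), a ratio of 5.58 (2.22 to 18.0). Beside it, the myocyte marker list summed to 2913 and 5275 CPM, and 4 of 7 G2 and M phase genes were at least 2-fold higher in homozygous myocyte-like cells. Their part in the foxd3 ratio was not tested. In the shallow unnamed cluster foxp4 was at 24.3 and 74.6 CPM (1 of 2 higher, all genes 5.75%), a ratio of 3.08 (1.50 to 6.35). The LPM marker list summed to 587 and 1174 CPM and the p53 list to 2712 and 1194 CPM in that cluster, and their part in the foxp4 ratio was not tested. In epidermal-like cells foxj1a was at 37.5 and 86.2 CPM (1 of 3 higher, all genes 5.32%), a ratio of 2.30 (1.1 to 4.80), but without the UMI minimum no foxj1a UMI lay in the homozygous class. The make-up of the class also differed, since the hatching gland list summed to 5916 and 107 CPM and the epidermal list to 13033 and 4768 CPM, and the part of this in the foxj1a ratio was not tested. RBC-like cells had foxj3 at 4.45 and 9.36 CPM (1 of 9 higher, all genes 3.22%), a ratio of 2.10 (1.02 to 4.42).

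The remaining differences had intervals that included 1 or did not reach 2-fold. In neural-like cells foxn4 was higher by 2.09 (0.881 to 4.86; 1 of 7 higher, all genes 5.27%), but 10 of its 12 homozygous UMIs were in 1 cell and the ratio without the top cells was 0.498. foxg1a and foxd1 had ratios near 1 in neural-like cells, at 0.889 (0.496 to 1.53) and 1.03 (0.690 to 1.52). These rested on few homozygous cells, since foxg1a was seen in 3 and foxd1 in 4 of 23. Much of the homozygous foxd1 count was in 1 cell. In the p53-rich unnamed cluster foxm1 had a ratio of 2.02 (0.779 to 5.31; 1 of 5 higher, all genes 4.27%). In tailbud-like cells 0 of 3 forkheads were 2-fold higher or lower (all genes 5.24% and 5.95%), with foxc1a at 45.7 and 44.6 CPM. No forkhead was 2-fold lower in homozygous RBC-like (all genes 5.52%), myocyte-like (6.05%), neural-like (8.54%) or epidermal-like cells (13.2%), nor in the unnamed clusters (7.90% and 7.80%). In cardiomyocyte-like cells 0 forkheads had enough counts (all genes 14.9% higher and 7.31% lower).

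Partner and pathway genes were read in the same way. Of 11 ETS factors measured over all cells, 5 were at least 2-fold lower in the homozygous library (all genes 11.2%) and 0 higher (6.62%), with a median ratio of 0.557, among them erg (67.2 and 3.98 CPM) and fli1a (180 and 40.6 CPM). The list includes etv2, the disrupted gene, and erg and fli1a served as endothelial markers. This count is therefore not separate from the disruption and the low number of homozygous endothelial-like cells. In LPM-like cells 1 of 8 ETS factors was higher (all genes 5.49%) and 2 were lower (4.39%), with a median ratio of 0.799. The lower genes were etv2 and etv5b, and the higher one was fli1b, at 13.9 CPM in heterozygous and 76.5 CPM in homozygous cells, a ratio of 5.52 (2.92 to 11.5). fli1b lies next to etv2, and the study proposes that the insertion may have interrupted its expression. The part of such a local effect in the fli1b ratio was not tested. Of 10 genes for Hedgehog receptors, co-receptors and Gli factors, a pathway upstream of several FoxF and FoxC genes in mesenchyme, 4 were higher over all cells (hhip, gli2b, gli3 and boc, all genes 6.62%). Within LPM-like cells 0 of 9 were 2-fold apart (all genes 5.49% higher and 4.39% lower). Heterozygous LPM-like cells were themselves at least 2-fold above other cells in 6 of 10 of these genes (all genes 6.26%), led by gli2b at 8.01-fold (4.1 to 14.9) and boc at 6.42-fold (4.67 to 8.72).

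Mesenchymal transcription factors were also compared. Of 10 cranial mesenchyme and sclerotome factors, 6 were at least 2-fold higher over all homozygous cells (all genes 6.62%), with a median ratio of 2.13. Within LPM-like cells 1 of 7 was higher (all genes 5.49%) and 2 were lower (4.39%), with a median ratio of 0.759. The higher gene, nkx3.2, a sclerotome and jaw joint gene, was at 10.1 and 45.9 CPM, a ratio of 4.55 (2.13 to 11.1). On the other side, tbx15 was at 21.4 and 3.82 CPM and meox1 at 74.3 and 35.4 CPM. Of 11 insulin, PI3K and Akt genes upstream of FoxO and 13 genes of the G2 and M phases, to which foxm1 is tied, 0 were 2-fold apart over all cells (all genes 6.62% higher and 11.2% lower), with median ratios of 0.952 and 1.47.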

How the data were processed

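The deposited files hold, per library, UMI counts for each gene and barcode that the authors made with Cell Ranger (2.0.2 per the submitters' processing notes) on the GRCz10 genome; the gene annotation is not given in the sources used here. From these counts, barcodes with 2500 or more UMIs, a gene number above 200 and up to 3500, and a mitochondrial share no higher than 5% were kept, and CPM were computed from summed counts. Without the UMI minimum, 2049 and 588 barcodes passed. Kept cells held 16913592 and 6277215 UMIs. Both libraries were clustered together in Seurat 5.3.0 (R 4.3.3) with LogNormalize, total UMIs and mitochondrial share regressed out, 13 components, 30 neighbors and resolution 1. All forkheads were left out of the variable genes, 2086 of which were used. A cluster was named when at least 3 markers of a list were 2-fold higher than elsewhere, more than of any other list. No doublet caller was run, and the limit of 3500 genes removes some doublets. Levels have exact Poisson, ratios exact conditional binomial and shares Clopper-Pearson 95% intervals, computed with scipy 1.17.1. Only the ratio intervals were tried on simulated data, which were independent Poisson counts. That simulation has no clumping of counts in single cells and cannot show how the intervals hold under it. No test was made, since neither genotype has a second library, and "at least 2-fold" with the stated minimums stands in for a call. Every forkhead with 20 or more UMIs was described, and the others were only counted and named. Members, markers and lists were chosen with earlier results of these data known. Alternatives changed the resolution (0.6), the cells, the clustering genes, the free RNA, the weights, the most extreme cell, the minimum of UMIs (50) and the thinning depth.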

Additional observations from a re-analysis of the deposited data

How the results depend on the processing

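Of 72 ratios at least 2-fold apart, recomputed under each alternative that could give a value (482 values in all), 452 stayed within the counting interval of the reported value, 26 lay outside it in the same direction and 4 changed direction. Those 4 were foxn4 without the cell with the most counts of the gene (0.491 over all cells, 0.498 in neural-like cells) and foxj1a without the UMI minimum (0 in homozygous epidermal-like cells against other cells, and 0 for homozygous over heterozygous); the cause was not tested. The number of gene and class pairs at least 2-fold higher was 17 in the homozygous library, 11 with a minimum of 50 UMIs and 10 without the top cell. Over all cells, 7 genes were higher in homozygous cells, 11 with the mean of single-cell CPM and 3 with a minimum of 50 UMIs. There, 1 gene was lower, 2 with the empty-droplet profile subtracted, 2 with the mean of single-cell CPM and 3 without the top cell. Within classes, 8 pairs were higher, 5 without the UMI minimum, 5 without the top cell and 1 with a minimum of 50 UMIs, and 3 were lower, 5 with the mean of single-cell CPM and 0 with a minimum of 50 UMIs, which tests fewer genes. Thinning to 8811 instead of 5157 UMIs, which keeps more UMIs per cell, gave LPM-like shares of 50% (foxc1b) and 78.8% (foxp4) in heterozygous and 42.3% (foxc1b), 63.4% (foxd2), 67.6% (foxp1b) and 76.1% (foxp4) in homozygous cells. Subtracting the empty-droplet profile removed 11.1% and 13.4% of UMIs. These shares treat all hemoglobin RNA outside RBC-like cells as free RNA. The unnamed cluster led by adgrg11 held 5069 and 9368 CPM of the RBC marker list, so the shares may be too large. Whether that RNA belongs to those cells was not tested. In homozygous RBC-like cells foxd1 was at 0 CPM (up to 1.73) and foxd2 at 0.936 CPM (up to 3.38). The low-count barcodes held 58.2 and 42.2 CPM of them, so for these 2 genes the subtraction takes more than RBC-like cells held. No paired analysis was possible because each genotype has 1 library. Depth limits genes with under 20 UMIs, which were not compared.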
